A study of Rattus norvegicus with 24 samples.

Results

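The genes described here are 38 genes of DNA replication and S phase. They were chosen by name from what they are known to do, with earlier results of these data already known. Of the 38 genes, 37 had a row among the 17420 genes of the deposited table, and Chaf1a was not analysed here. All 37 had a value above the table's floor in all 24 pups, and they were fitted with the 12654 genes for which this held. By role, 13 belong to origin licensing and the replicative helicase, 13 to synthesis at the fork, 5 to nucleotide supply and uracil removal, 3 to histone supply and DNA methylation upkeep and 3 to the switch from G1 to S phase.

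RNA was sequenced from the hippocampus and neocortex of Sprague-Dawley rat fetuses on embryonic day 18. The study asked how 3 prenatal exposures used to model schizophrenia change the fetal transcriptome. Dams arrived on gestational day 11, and in each group 3 pups were taken from each of 2 litters, 6 pups in all. A pup's litter was read from the first number of its name (1.1 to 2.3), a meaning that the labels do not define, and every result by litter rests on that reading. MAM dams received methylazoxymethanol acetate, a DNA-methylating agent, at 22 mg/kg on gestational day 17. Poly I:C dams received polyinosine:cytosine, a mimic of viral double-stranded RNA, at 7.5 mg/kg on the same day, and Saline dams received saline. Low Protein dams ate a diet of 6.1% protein from arrival, against 20.3% in the isocaloric control diet; the sources used here do not state which diet the injected dams ate. Tissue of the MAM, Poly I:C and Saline groups was collected 18 hours after injection. No injection is stated for the Low Protein dams, so Low Protein and Saline may also differ in the injection. The dam is the treated unit, so p-values over pups measure the spread between pups and each group holds only 2 dams.

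Replication starts when origins bound by the origin recognition complex are loaded with the Mcm2 to Mcm7 helicase by Cdc6 and Cdt1. In S phase, Cdc45 and the GINS complex turn the loaded ring into a moving helicase. Polymerase alpha and its primase then lay primers, and Pcna, loaded by the replication factor C clamp loader, holds the main polymerases on DNA. In the fetal cortex these genes are mostly used by the dividing progenitors along the ventricle and little by neurons, and E2F factors are known to drive many of them at the entry to S phase. In bulk tissue, a change in the number of dividing cells and a change in RNA per cell cannot be told apart.

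RefSeq promoters (GRCr8 assembly; the expression files use rn6) were matched by symbol for 32 of the 37 genes, and those of Mcm4, Cdc6, Rrm2, E2f1 and Ccne2 are not shown. Windows ran from 250 bases before the annotated start to 50 bases after it. They were searched on both strands for the E2F-type words TTTCCCGC, TTTCGCGC, TTTGCCGC and TTTGGCGC, and overlapping matches were counted separately. At least 1 word was found for 17 of the 32 genes. Some genes had more than 1 window, and 17 of the 35 windows of these genes (48.6%) held a word, against 2.14% of all 33469 promoter windows and 3.80% of the 10194 windows of tested genes. A match is a run of letters and was not tested as a binding site. Stretches from 200 bases before the start to 30 bases from it on are printed for 5 genes and for Pcna. The 5 hold a word and had an unadjusted limma p under 0.05 in Poly I:C against saline. Pcna, Cdc45 and Rrm1 also passed that threshold and hold no word in their windows. Capitals mark the words. Positions count the start base as 0. Mcm3 (chr9:30733717-30733946, minus strand) holds words beginning at -6 and 13, Gins1 (chr3:160184720-160184949, plus strand) holds overlapping words at -25 and -21, and Pola1 (chrX:62342326-62342555, minus strand) holds one at -172. Rpa2 (chr5:150260572-150260801, plus strand) holds one at 7 and Ung (chr12:48154016-48154245, minus strand) one at -20; Pcna is given at chr3:139955791-139956020, minus strand.
Mcm3: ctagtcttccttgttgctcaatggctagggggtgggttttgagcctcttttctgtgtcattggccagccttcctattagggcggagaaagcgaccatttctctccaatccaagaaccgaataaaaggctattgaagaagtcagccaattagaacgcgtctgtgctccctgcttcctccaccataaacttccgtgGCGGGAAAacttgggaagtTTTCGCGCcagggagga
Gins1: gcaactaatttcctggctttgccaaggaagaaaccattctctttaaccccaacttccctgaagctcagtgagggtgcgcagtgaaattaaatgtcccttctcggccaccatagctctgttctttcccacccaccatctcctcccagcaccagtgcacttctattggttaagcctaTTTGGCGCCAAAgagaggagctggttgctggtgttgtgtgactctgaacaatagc
Pola1: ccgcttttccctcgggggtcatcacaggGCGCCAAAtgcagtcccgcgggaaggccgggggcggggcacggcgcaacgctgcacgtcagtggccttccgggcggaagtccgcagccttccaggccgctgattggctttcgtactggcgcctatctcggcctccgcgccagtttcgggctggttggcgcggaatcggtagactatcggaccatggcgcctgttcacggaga
Rpa2: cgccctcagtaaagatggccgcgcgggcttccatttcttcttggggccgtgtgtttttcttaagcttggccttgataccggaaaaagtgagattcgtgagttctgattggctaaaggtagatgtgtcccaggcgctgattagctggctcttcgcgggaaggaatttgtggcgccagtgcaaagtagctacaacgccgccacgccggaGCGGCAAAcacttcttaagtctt
Ung: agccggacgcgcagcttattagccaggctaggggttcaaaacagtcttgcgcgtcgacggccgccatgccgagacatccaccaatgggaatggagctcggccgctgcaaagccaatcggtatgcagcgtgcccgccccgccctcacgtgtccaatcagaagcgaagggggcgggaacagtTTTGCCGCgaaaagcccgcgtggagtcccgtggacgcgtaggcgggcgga
Pcna: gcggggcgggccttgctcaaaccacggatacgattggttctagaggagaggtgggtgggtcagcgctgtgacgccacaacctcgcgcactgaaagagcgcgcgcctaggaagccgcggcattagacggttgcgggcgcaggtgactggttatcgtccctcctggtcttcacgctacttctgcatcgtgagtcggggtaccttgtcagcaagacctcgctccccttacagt

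The deposited values, in TPM, summed to the same total in each pup. Depth, estimated from the steps between low values, was 24.3 to 63.1 M (megareads) a pup, which put each replication gene at 148 or more estimated reads in every pup. Levels are not compared between genes, because the values followed genomic span rather than transcript length. The neocortical marker Tbr1 stood at 14.5 ± 1.43 TPM (SD, n = 6) in saline and between 10.4 and 16.9 TPM over the 24 pups. Cdkn1a, a p53 target that halts the cell cycle, stood at 1.13 ± 0.0810 TPM (SD, n = 6) in MAM and 0.566 ± 0.0570 TPM (SD, n = 6) in saline, with a limma adjusted p of 0.000647.

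A score was computed for each pup as the mean log2 value of the 37 genes relative to the saline mean. It was highest in Poly I:C, at 0.14 ± 0.18, against 0 ± 0.06 for Saline, and stood at 0.08 ± 0.14 for Low Protein and 0.04 ± 0.09 for MAM (SD, n = 6 each). The saline pups ran from -0.07 to 0.09 and the Poly I:C pups from -0.10 to 0.38. Low Protein pups lay between -0.16 and 0.27, and MAM pups between -0.02 and 0.22. All 4 groups overlapped. Within Poly I:C the litters parted, at 0.01 ± 0.10 in litter 1 and 0.28 ± 0.10 in litter 2 (SD, n = 3 each). In Low Protein the litter means were 0.18 and -0.01, in MAM 0.00 and 0.08, and in Saline -0.02 and 0.02.

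**Figure D1:**
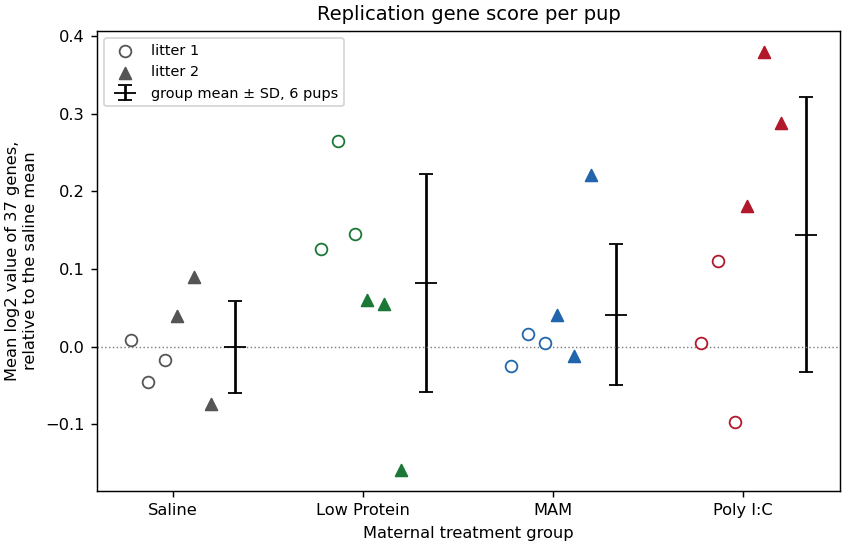
Mean log2 value of the 37 genes in each of 24 pups, relative to the saline mean, by maternal treatment group. Open circles are litter 1 and filled triangles litter 2, and the bars are group means ± SD over 6 pups. The 3 pups of Poly I:C litter 2 (0.18 to 0.38) all lie above the highest saline pup (0.09).

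Against saline, no replication gene passed an adjusted p of 0.05 in any of the 3 exposures, where 0.0158% of all genes did in MAM and 0% in the other exposures. For 36 of 37 genes the Poly I:C fold change was positive, with a median of 0.17 (log2) against 0.00 over all genes tested. At an unadjusted limma p under 0.05, 9 genes (24.3%) were higher in Poly I:C and none lower, against a background of 9.44% of all genes in either direction and 3.96% higher. The count of 9 was 2 without Poly I:C pup 2.2 and 15 without pup 1.3, neither set against the share of all genes in its own fit. Adjusted p-values of the 9 ran from 0.341, for Mcm4, to 0.522. In Low Protein, 30 of 37 fold changes were positive with a median of 0.09, and 2 genes passed the unadjusted threshold, both higher (5.41%, against a background of 7.20%, or 2.65% higher). In MAM, 25 of 37 were positive with a median of 0.06 against -0.07 over all genes, and none passed the unadjusted threshold (background 10.0%). No gene had 6 exposed pups wholly apart from the 6 saline pups, where 0.450% of all genes did in Poly I:C, 0.680% in Low Protein and 0.901% in MAM.

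**Figure D2:**
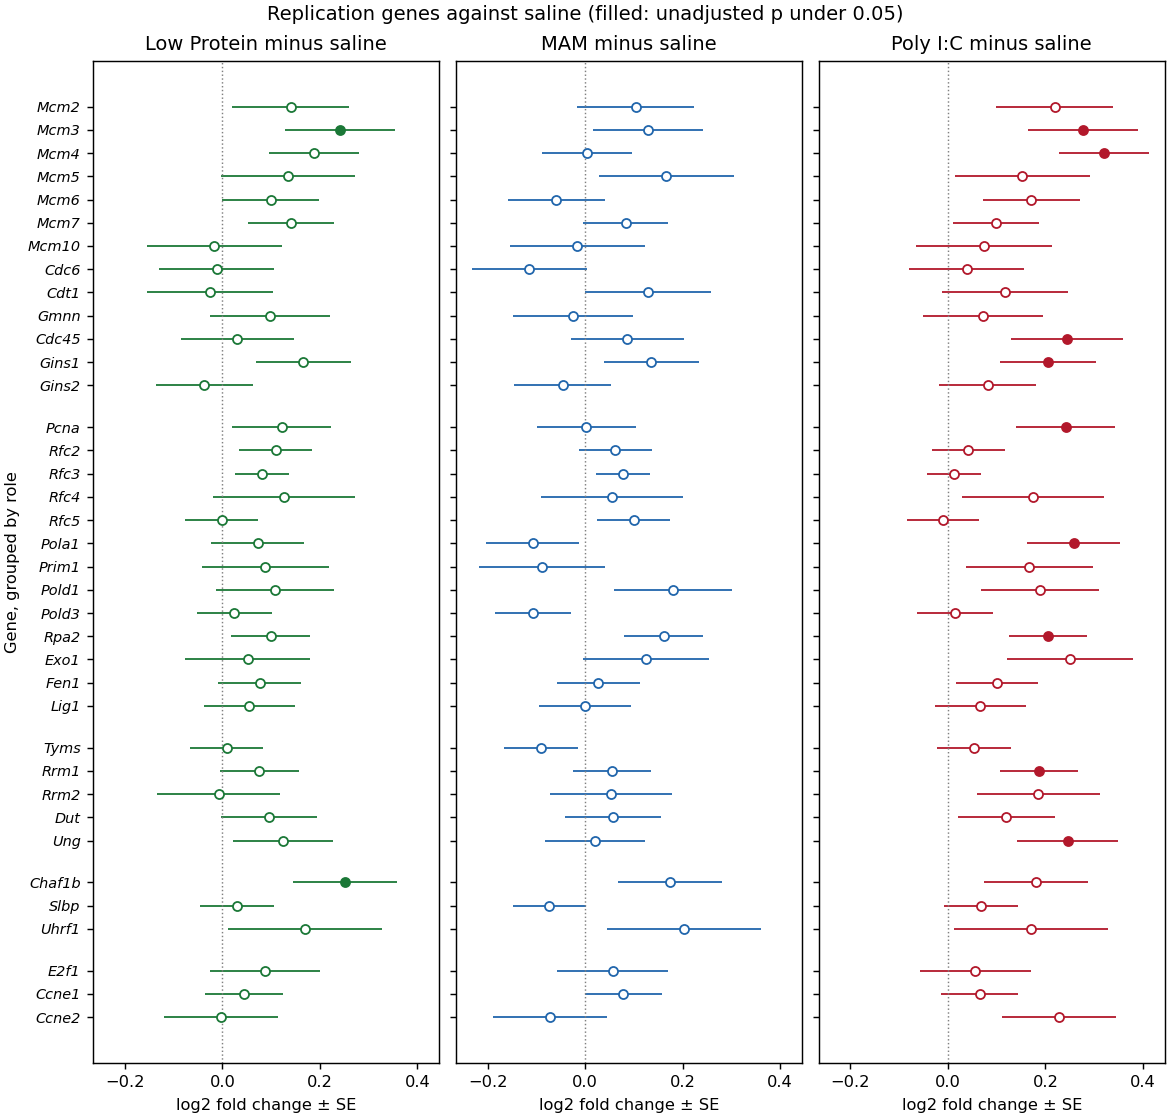
Fitted log2 fold change ± SE of each of the 37 genes against saline, in the 3 exposures, with genes grouped by role from licensing at the top to the G1 to S switch at the bottom. Filled points have an unadjusted limma p under 0.05: 9 in Poly I:C, 2 in Low Protein and none in MAM, and none passed after adjustment.

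Among the 13 licensing and helicase genes, all 13 fold changes in Poly I:C were positive and 4 passed the unadjusted threshold. The counts by role, here and below, divide the same 9 calls. Over all genes 9.44% passed in either direction and 3.96% as higher. Mcm4, a subunit of the helicase ring, ran from 2.33 to 3.26 TPM in saline (median 2.77) and from 3.06 to 4.14 TPM in Poly I:C (median 3.45). It ran from 2.46 to 3.54 TPM in Low Protein (median 3.27) and from 2.66 to 3.09 TPM in MAM (median 2.72). All 6 Poly I:C pups lay above the saline mean and 3 lay above every saline pup. The fold change was 0.32 ± 0.09 (log2, SE), with a two-sided exact permutation p of 0.0152, unadjusted, where 6 pups against 6 allow no p under 0.00216.

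Mcm3, another subunit of that ring, was the one gene past the unadjusted threshold in both Low Protein and Poly I:C. Its values ran from 1.13 to 1.52 TPM in saline (median 1.37), from 1.24 to 1.86 TPM in Low Protein (median 1.71) and from 1.16 to 2.08 TPM in Poly I:C (median 1.64). In MAM they ran from 1.41 to 1.60 TPM (median 1.45). The lowest pup of Low Protein and of Poly I:C sat within the saline range, while 4 and 5 pups respectively sat above it. The fold change was 0.24 ± 0.11 for the diet (limma adjusted p = 0.690) and 0.28 ± 0.11 for Poly I:C (limma adjusted p = 0.435). Both comparisons share the saline pups.

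Cdc45, which joins the ring to form the active helicase, ran from 0.233 to 0.302 TPM in saline (median 0.251) and from 0.240 to 0.357 TPM in Poly I:C (median 0.325), a fold change of 0.24 ± 0.12. Its Low Protein pups ran from 0.213 to 0.321 TPM (median 0.263) and its MAM pups from 0.228 to 0.363 TPM (median 0.263). Gins1, a GINS subunit, ran from 0.320 to 0.383 TPM in saline (median 0.329) and from 0.306 to 0.450 TPM in Poly I:C (median 0.414), a fold change of 0.21 ± 0.10. For Gins1 the Low Protein range was 0.336 to 0.435 TPM (median 0.386) and the MAM range 0.330 to 0.466 TPM (median 0.370). For both genes 4 of 6 Poly I:C pups exceeded every saline pup, and adjusted p-values from limma were 0.519 and 0.522. The licensing inhibitor geminin (Gmnn) and the loaders Cdc6 and Cdt1 had Poly I:C fold changes of 0.07, 0.04 and 0.12, and Cdc6 was at -0.11 in MAM.

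Of the 13 fork genes, 12 fold changes were positive in Poly I:C and 3 passed the unadjusted threshold. Pcna, the sliding clamp, ran from 17.7 to 20.7 TPM in saline (median 18.5) and from 18.5 to 26.1 TPM in Poly I:C (median 23.0). Low Protein pups ran from 17.5 to 24.6 TPM (median 20.6) and MAM pups from 15.9 to 23.2 TPM (median 19.0). In Poly I:C 4 of 6 pups lay above every saline pup, and the fold change was 0.24 ± 0.10 (exact permutation p = 0.0346, two-sided and unadjusted).

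Pola1, the catalytic subunit of polymerase alpha, ran from 0.0372 to 0.0516 TPM in saline (median 0.0407), from 0.0444 to 0.0569 TPM in Poly I:C (median 0.0502) and from 0.0339 to 0.0471 TPM in MAM (median 0.0373). Low Protein pups ran from 0.0358 to 0.0483 TPM (median 0.0451). The Poly I:C fold change was 0.26 ± 0.10 against saline, and all 6 pups exceeded the saline mean (exact permutation p = 0.0238, two-sided and unadjusted). Rpa2, part of the complex that coats single-stranded DNA, ran from 1.20 to 1.42 TPM in saline (median 1.32) and from 1.31 to 1.82 TPM in Poly I:C (median 1.43), a fold change of 0.21 ± 0.08. Its Low Protein range was 1.29 to 1.54 TPM (median 1.40) and its MAM range 1.23 to 1.66 TPM (median 1.46). The clamp loader genes Rfc2, Rfc3 and Rfc5 had Poly I:C fold changes of 0.04, 0.01 and -0.01, beside 0.17 for Rfc4.

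**Figure D3:**
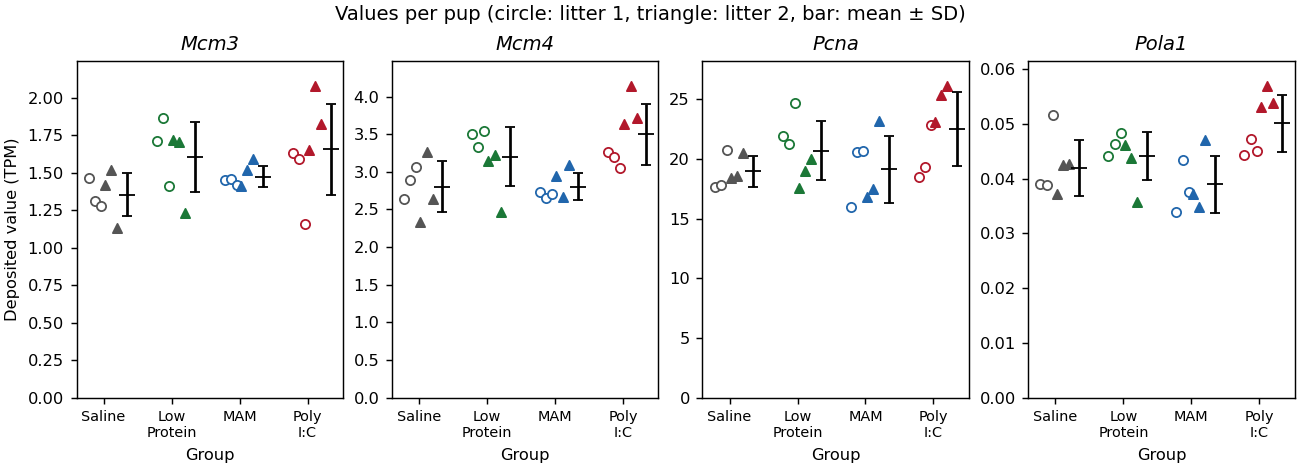
Deposited values in TPM of Mcm3, Mcm4, Pcna and Pola1 in each pup, with open circles for litter 1, filled triangles for litter 2 and bars for the mean ± SD over 6 pups. In Poly I:C each gene's litter 2 pups (for Pcna 23.1 to 26.1 TPM) lie above its litter 1 pups.

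All 5 genes of nucleotide supply and uracil removal had positive fold changes in Poly I:C, and 2 passed the unadjusted threshold. Rrm1, the large subunit of ribonucleotide reductase, ran from 3.89 to 4.21 TPM in saline (median 3.99) and from 3.75 to 5.29 TPM in Poly I:C (median 4.65), a fold change of 0.19 ± 0.08. Its Low Protein pups ran from 3.89 to 4.87 TPM (median 4.16) and its MAM pups from 3.68 to 4.56 TPM (median 4.35). Ung, which removes uracil from DNA, ran from 1.04 to 1.29 TPM in saline (median 1.20) and from 1.04 to 1.83 TPM in Poly I:C (median 1.43), a fold change of 0.25 ± 0.10. Its Low Protein range was 1.03 to 1.43 TPM (median 1.33) and its MAM range 1.12 to 1.35 TPM (median 1.18). In both genes 4 Poly I:C pups lay above every saline pup and 1 lay below every saline pup. Tyms, which makes thymidylate, had fold changes of 0.05 in Poly I:C and -0.09 in MAM.

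The 3 genes of histone supply and DNA methylation upkeep had positive fold changes in Poly I:C and in Low Protein. Chaf1b, a subunit of the chromatin assembly factor that loads histones on new DNA, ran from 0.329 to 0.496 TPM in saline (median 0.404) and from 0.407 to 0.542 TPM in Low Protein (median 0.493). It ran from 0.442 to 0.472 TPM in MAM (median 0.465) and from 0.333 to 0.547 TPM in Poly I:C (median 0.483). The Low Protein fold change was 0.25 ± 0.11 (exact permutation p = 0.0346, two-sided and unadjusted), with 5 of 6 pups above the saline mean and 2 above every saline pup. Uhrf1, which directs maintenance methylation, had a fold change of 0.20 in MAM and of 0.17 in each of the other exposures, none past the unadjusted threshold.

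None of the 3 G1 to S genes passed the unadjusted limma threshold against saline. Ccne2, a cyclin that activates Cdk2 at S phase entry, had the largest fold change of them, 0.23 ± 0.12 in Poly I:C. Its values ran from 0.519 to 0.666 TPM in saline (median 0.581), from 0.545 to 0.804 TPM in Poly I:C (median 0.694), from 0.429 to 0.696 TPM in Low Protein (median 0.627) and from 0.493 to 0.689 TPM in MAM (median 0.542). E2f1, the transcription factor, had a fold change of 0.09 in Low Protein and 0.06 in both injected groups. Over the 148 exact tests of the 37 genes in 4 comparisons, an unadjusted exact p under 0.05 was found for 6 genes in Poly I:C, 2 in MAM (Rfc3 higher and Pold3, a polymerase delta subunit, lower) and 1 in Low Protein, and for 4 genes when the injected exposures were set against each other. Over all genes the same exact test gave 7.82% in Poly I:C, 13.6% in MAM, 9.46% in Low Protein and 19.3% between the injected exposures. The 6 Poly I:C genes were Mcm4, Pcna, Pola1, Rpa2, Rrm1 and Ccne2. Mcm3, Cdc45, Gins1 and Ung, past the unadjusted limma threshold in Poly I:C, had exact permutation p-values of 0.0649, 0.0628, 0.0693 and 0.0823. For Mcm3 in Low Protein the exact p was 0.0584.

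The higher Poly I:C values lay mostly in litter 2. In that litter all 3 pups exceeded every saline pup in 16 of 37 genes, among them Mcm2, Mcm3, Mcm4, Mcm6, Cdc45, Pcna, Pola1, Prim1, Rrm1 and Ung, while in litter 1 this held for none. Over all genes the shares were 3.90% in litter 2 and 0.940% in litter 1. In Low Protein it held for 7 genes in litter 1 (Gmnn, Mcm4, Pcna, Rfc2, Rfc3, Rrm1 and Ung) and none in litter 2, and in MAM for 3 genes in litter 2 (Rfc2, Rfc3 and Rfc5) and none in litter 1. The shares over all genes were 2.21% and 1.09% in litters 1 and 2 of Low Protein, and 0.846% and 1.20% in those of MAM. Fits without 1 of the Poly I:C litters keep the 3 pups of 1 dam, so they cannot tell the exposure from that dam. Litter 2 had also been seen to be the higher before these fits were read. Without Poly I:C litter 1, 23 of 37 genes passed the unadjusted threshold against saline and 5 (Chaf1b, Mcm3, Mcm4, Rrm1 and Ung) an adjusted p of 0.05. Over all genes 18.6% passed the unadjusted threshold in that fit, 5.86% as higher, and 1.94% passed after adjustment. Without litter 2, no replication gene passed (4.54% of all genes did) and the median fold change was 0.00, with 18 of the 37 fold changes turned in sign. E2f1 then stood at -0.16, Cdc6 at -0.16, Cdt1 at -0.10, Gmnn at -0.09 and Uhrf1 at -0.07. Others stayed positive, with Mcm4 at 0.18, Ccne2 at 0.17, Gins1 and Pola1 at 0.13, Rfc4 and Gins2 at 0.12 and Mcm3 at 0.10. Estimated depth also differed between these litters, at 28.2 to 28.6 M reads in litter 1 and 31.3 to 40.5 M in litter 2, and its part in the result was not tested.

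**Figure D4:**
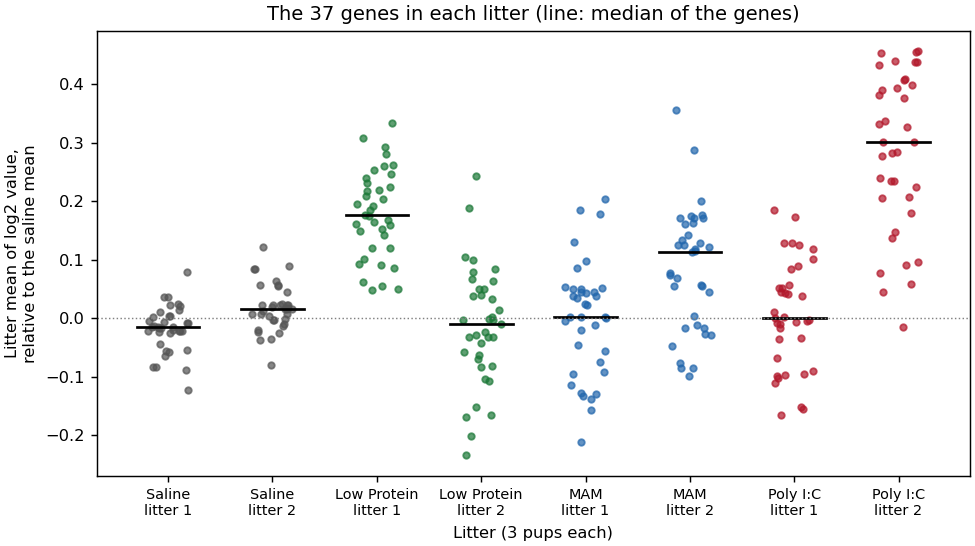
Each point is 1 of the 37 genes, placed at its mean log2 value over the 3 pups of a litter relative to the saline mean, for the 8 litters; the line is the median of the genes. Poly I:C litter 2 and Low Protein litter 1 stand above 0, with 36 and 37 of 37 genes above the saline mean.

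The litters of each group were then compared by limma with litter as a factor, a test added after the scores had been seen and in which 3 pups stand for each dam. In Poly I:C, 20 of 37 genes (54.1%) were higher in litter 2 at an unadjusted p under 0.05 and none lower, against 14.7% of all genes in either direction and 4.33% higher. None passed after adjustment (lowest adjusted p 0.147), where 0.0158% of all genes did. Prim1, the primase, had the lowest p, at 1.47, 1.79 and 1.95 TPM in litter 1 and 2.46, 2.46 and 2.55 TPM in litter 2, a difference of 0.53 ± 0.13 (log2, SE). Mcm5 differed by 0.51 ± 0.16 and E2f1 by 0.44 ± 0.13, while neither passed the unadjusted threshold against saline over the 6 pups. The pups of the 2 litters did not overlap in 23 genes, all higher in litter 2, where 7.23% of all genes did so upward and 11.0% downward. Pold3 and Gins2 were the 2 exceptions in direction, at -0.06 and -0.07.

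In Low Protein all 37 differences ran the other way, lower in litter 2, with a median of -0.18 against -0.06 over all genes. The threshold was passed by 8 genes (21.6%), at an unadjusted p under 0.05, against a background of 9.85%, or 8.24% lower. The pups of the 2 litters did not overlap in 6 of the 37 genes, all lower in litter 2. That is a share near the background, as 14.8% of all genes did so downward and 2.38% upward. Rrm2, the small subunit of ribonucleotide reductase, stood at 7.59, 8.46 and 8.51 TPM in litter 1 and 6.41, 6.29 and 5.27 TPM in litter 2, a difference of -0.45 ± 0.14. Its fold change over all 6 pups against saline was -0.01. In MAM and Saline no gene passed this threshold, where 1.81% and 2.29% of all genes did. The number of a litter is only a name, so litter 1 of one group has no tie to litter 1 of another.

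MAM and Poly I:C, injected on the same day, were compared directly. Here 6 of 37 genes (16.2%) were lower in MAM at an unadjusted limma p under 0.05, against 18.4% of all genes in either direction and 14.7% lower, a share near the background. After adjustment none passed, where 0.822% of all genes did. The 6 genes were Mcm4, Mcm6, Pcna, Pola1, Ung and Ccne2. The Pola1 difference was -0.37 ± 0.10 (adjusted p = 0.0661), with 5 of 6 MAM pups below every Poly I:C pup and an exact permutation p of 0.00866, unadjusted. For Mcm4 it was -0.32 ± 0.09 (adjusted p = 0.0876), again with 5 of 6 MAM pups below every Poly I:C pup. The median over all genes was -0.06, and scaling the pups by the median of ratios removed that shift and left 2 of the 6 calls. The share of all genes called after that scaling is not reported here. No gene's 6 pups were wholly apart (background 3.37%). Across the 4 groups, Mcm4 and Pola1 had an unadjusted F-test p under 0.05 (5.41%, background 12.8%), and neither passed after adjustment, where 0.158% of all genes did.

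A further 50 replication genes, such as origin recognition subunits, other polymerase subunits and regulators, were compared in the same fit. In Poly I:C, 46 of 50 fold changes were positive with a median of 0.13, and 7 were higher and 1 lower at an unadjusted p under 0.05. The share passing was 16.0%, against 9.44% of all genes in either direction. The 5 with the lowest p were Rbl1 at 0.27, Orc1 at 0.42, Cdk2 at 0.26, Gins4 at 0.18 and Pold4 at -0.26. In MAM, 2 were higher (Asf1b and Pold2), or 4% beside 10.0% of all genes. When MAM was set against Poly I:C, 14 of 50 (28.0%) passed the unadjusted threshold, 13 lower in MAM and 1 higher, with a median difference of -0.12, beside the background of 18.4% given above for that comparison. The 5 with the lowest p were Nasp at -0.29, Rb1 at -0.42, Cdc7 at -0.29, Gins4 at -0.23 and Rbl1 at -0.27, and the lowest limma adjusted p was 0.0704. Across the 4 groups, 8 of 50 (16.0%) passed the unadjusted threshold, beside 12.8% of all genes. None of these genes passed an adjusted p of 0.05. The litters of Poly I:C again differed, with list scores of 0.06 and 0.20. At an unadjusted p under 0.05, 11 genes were higher in litter 2 (22%, background 14.7%, or 4.33% higher). In Low Protein, 16 were lower in litter 2 (32%, background 9.85%, or 8.24% lower).

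Genes of G2 and mitosis, which act after replication, were followed beside these. In MAM, 9 of 19 (47.4%) were higher at an unadjusted p under 0.05, against 10.0% of all genes in either direction. They were led by Ccnb2 at 0.30, Ube2c at 0.32 and Birc5 at 0.27. The median of the 19 was 0.20 beside 0.06 for the 37 replication genes. None of the 19 passed after adjustment (lowest adjusted p 0.490). In Poly I:C 3 were higher (15.8%, background 9.44%, or 3.96% higher). In litter 2 of Poly I:C 8 were higher than in litter 1 (42.1%, background 14.7%, or 4.33% higher). In Low Protein 1 was higher than in saline (5.26%, background 7.20%, or 2.65% higher). Of 10 p53 targets, 5 were higher and 1 lower in MAM (60%, background 10.0%). Of these, 2 (Cdkn1a and Aen) passed after adjustment, where 0.0158% of all genes did.

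Markers of the cell types in the dissection moved with some of these litters, and their part in the results was not tested. In Poly I:C litter 2, the score of 12 neuronal markers was -0.17 against 0.03 in litter 1, and that of 8 ganglionic eminence markers -0.41 against 0.04. Only 3 of the 6 listed intermediate progenitor markers (Neurog1, Gadd45g and Btg2) were measured, and Gadd45g also differed between the Saline litters at an unadjusted limma p under 0.05. These 3 stood at 0.64 against 0.15, 9 blood genes at 0.45 against 0.08, and 11 radial glia markers at 0.15 against 0.07. The 8 markers of meninges and vessels stood at 0.22 in litter 2 and -0.25 in litter 1, and all 8 were higher in litter 2. Their summed levels were 382 to 411 TPM in litter 2 and 401 to 413 TPM in litter 1 for neurons, and 24.2 to 31.3 and 18.9 to 24.3 TPM for intermediate progenitors. For radial glia the sums were 195 to 198 and 195 to 203 TPM, and for blood 3266 to 4305 and 2642 to 4377 TPM. For meninges and vessels they were 63.5 to 85.5 and 47.3 to 60.7 TPM, without overlap. Most of that sum is Cldn5, with a mean of 52.4 TPM in Poly I:C. The scores of the 8 markers did overlap, at -0.06 to 0.48 in litter 2 and -0.49 to 0.11 in litter 1. In Low Protein, where the replication genes were higher in litter 1, intermediate progenitor markers stood at 0.29 in litter 1 and -0.06 in litter 2. Blood genes stood at -0.19 and 0.29, and markers of meninges and vessels at -0.26 and 0.26. Neuronal markers stood at -0.01 and -0.13, ganglionic eminence markers at -0.47 and -0.40, and radial glia markers at 0.10 and 0.06. The sums for intermediate progenitors were 22.5 to 27.3 TPM in litter 1 and 16.4 to 22.4 TPM in litter 2. For blood they were 1911 to 3722 and 2634 to 4663 TPM, and for meninges and vessels 40.2 to 82.9 and 54.4 to 112 TPM, with all 8 of the latter markers higher in litter 2. All of these markers were above the floor in all 24 pups.

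Across the groups, the summed ganglionic eminence markers ran from 47.0 to 99.0 TPM for Saline and 39.7 to 59.1 TPM for Low Protein. The MAM range was 43.6 to 59.7 TPM and the Poly I:C range 46.8 to 69.6 TPM. In Low Protein 5 of the 8 (62.5%) were lower at an unadjusted p under 0.05, and in MAM 3 (37.5%). Over all genes 7.20% and 10.0% passed in either direction. The summed blood genes overlapped in all groups, at 2079 to 3597 TPM in Saline and 2642 to 4377 TPM in Poly I:C. Radial glia sums ran from 173 to 205 TPM in Saline and from 195 to 203 TPM in Poly I:C. Fold changes in Poly I:C were positive for 8 of the 11 markers, and 2 (Pax6 and Hes1) were higher at an unadjusted p under 0.05. That was 18.2%, against 9.44% of all genes in either direction and 3.96% higher. Between the Poly I:C litters, 1 radial glia marker was higher and 1 lower in litter 2 at that threshold (18.2%, background 14.7%).

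**Figure D5:**
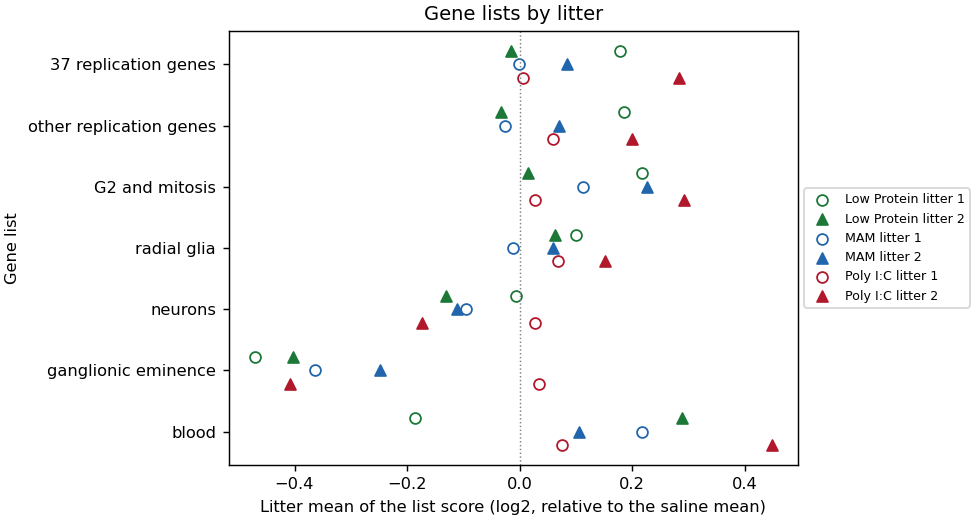
Mean score of 7 gene lists in the 6 litters of the exposed groups (log2, relative to the saline mean), with open circles for litter 1 and filled triangles for litter 2. The replication and mitosis lists part Poly I:C litter 2 (0.28 and 0.29) from litter 1 (0.01 and 0.03), and the neuronal and ganglionic eminence lists part the same litters in the other direction.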

How the data were processed

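Total RNA from 24 pups was made into stranded mRNA libraries and sequenced as paired reads. Per the submitters' processing notes and the study's methods, reads were trimmed in Partek at a quality of 30 and a minimum length of 25 bases, aligned to rn6 with STAR 2.4.1d, quantified and normalized by the authors to TPM with an offset of 0.0001, the lowest deposited value. The deposited TPM values summed to 70350.1 in each pup and followed genomic span, so lengths and levels between genes were not compared. No counts were used; depth was estimated from the steps of low values, of which 49.0 to 54.3% lay within 0.05 of a whole read, where chance gives 10%.

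Log2 values were fitted with limma 3.58.1 (R 4.3.3) over all 24 pups and 12654 genes above the offset in every pup, and p-values were adjusted by Benjamini-Hochberg over these genes. Scripts were tested on simulated data. Single genes were also compared by exact permutation over 924 splits. Genes are named where the unadjusted limma p against saline was under 0.05 or, for a role group without one, where the fold change was largest; others are named as examples of their role, or for how the litters differed, after their values were seen. Members and lists were chosen with earlier results of these data known. The alternatives, 45 settings, covered filters, pseudocounts, scaling, litter, the replicate block and leaving out each pup and litter. Some results for the further replication genes are not reported here.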

Additional observations from a re-analysis of the deposited data

Results flagged for a closer look

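In groups of 6 pups, a pup whose gap to its nearest neighbour was too large a share of the group's range by Dixon's 95% critical value was singled out. Of 152 groups, 13 held such a pup, where chance gives about 1 in 20. Low Protein 2.3 was lowest of its group in Mcm4 (2.46 TPM, the others 3.14 or more), Mcm10 (0.412 TPM), Cdc6 (0.275 TPM) and Pola1 (0.0358 TPM). MAM 2.3 was highest in Mcm6 (2.43 TPM), E2f1 (2.39 TPM), Ccne2 (0.689 TPM) and the mean score of the 37 genes (0.22 on the log2 scale, the others 0.04 or less). Poly I:C 1.3 was lowest in Lig1 (1.29 TPM) and Tyms (0.944 TPM). The other 3 were Mcm7 in Saline 2.2 (16.3 TPM, highest), Cdc6 in Saline 2.1 (0.467 TPM, highest) and Rfc2 in Low Protein 1.2 (1.87 TPM, highest). Poly I:C 2.2 was the highest of all 24 pups in 15 of the 37 genes, and Low Protein 2.3 the lowest in 12.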

How the results depend on the processing

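Counts are of the 37 genes at an unadjusted p under 0.05. The share of all genes called also differed between settings. In Poly I:C against saline it was 18.6% without Poly I:C litter 1 and 4.54% without its litter 2. Shares for the other settings are not reported here, so these counts were not set against a background. On litter means, with 2 values a group, 1 gene was called in Poly I:C, 0 in Low Protein, 2 in MAM against Poly I:C and 0 across the 4 groups. The study's filter left 26 of the 37 genes to test, and the counts were then 6 in Poly I:C, 2 in Low Protein, 1 in MAM, 4 in MAM against Poly I:C and 1 across the groups; in MAM, log2(value + 0.1) gave 1, the median of ratios 3 and the upper quartile 1. Between MAM and Poly I:C the median of ratios gave 2, and the upper quartile gave 5, of which 2 were higher in MAM. A fit without a litter keeps only 1 dam in that group. Leaving out each pup or litter moved the Poly I:C count between 0 and 23, the Low Protein count between 0 and 7 and the MAM count between 0 and 2. MAM against Poly I:C gave 1 to 17 genes (10 without MAM pup 2.3 and 11 without Poly I:C pup 1.3), and the 4 groups gave 1 to 13 (10 without Poly I:C pup 1.3). The Poly I:C count was 15 without pup 1.3, 2 without pup 2.2, 3 without pup 2.3 and 5 without Saline pup 2.3. The Low Protein count was 0 without its pup 2.1, its litter 1, Saline pup 2.3 or Saline litter 1, 4 without its pup 2.3 or Saline pup 2.2, and 7 without its litter 2. MAM against Poly I:C gave 3 without MAM pup 2.2 or without Poly I:C pup 2.2 or 2.3. For Poly I:C against saline, without Saline litter 1 the count was 2, and without Saline litter 2 it was 4. The score difference from saline then ranged from 0.0058 to 0.283 in Poly I:C, -0.0148 to 0.179 in Low Protein and -0.0011 to 0.0836 in MAM. Between MAM and Poly I:C, Pola1 reached an adjusted p of 0.0427 to 0.0485 in 4 of the settings that leave out a pup, and Mcm4 one of 0.0490 under the study's filter. The cause of these changes was not tested. Over the 17 single-gene differences past the unadjusted threshold, 606 values kept their call and 153 kept their direction but lost it, and no sign changed; among all 37 Poly I:C fold changes, called or not, 18 changed sign without litter 2 and 2 without litter 1.

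Pups of the same number in different groups were compared by correlation. Over 36 pairs the median was 0.04 and the highest 0.33, with 16 over 0.1. Pups of different numbers in different groups were not compared, so the check cannot decide whether the numbers pair pups. With the replicate block 8 genes were called in Poly I:C, 2 in Low Protein, 0 in MAM, 6 in MAM against Poly I:C and 3 across the groups. With 2 dams a group, an exposure and its litters cannot be told apart, and the depths are estimates.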
